A study of Mus musculus with 9 samples.

Results

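Erlin1 and Erlin2 encode a pair of closely related membrane proteins of the endoplasmic reticulum, the erlins (older gene names Spfh1 and Spfh2). Their RNA was followed on 9 exon arrays of C2C12 cells, an established mouse myoblast line. The members were found by annotation: every probe set (a group of array probes that reports on a small stretch of a transcript) whose platform annotation gives exactly 1 symbol, Erlin1 or Erlin2, was taken. This gave 35 probe sets, 20 for Erlin1 and 15 for Erlin2, of 316997 with 1 symbol on the array. The groups are cells given a control siRNA, a Cugbp1 siRNA or an Mbnl1 siRNA, harvested 48 h later, with 3 arrays each; no other treatment or genetic change is named, and 100 ng of total RNA went into each labelling. The labels do not say whether the 3 replicates were separate cultures, so the spread between arrays may be technical. Both genes were selected on their measured values in these same arrays: the gene-level differences between the groups and the probe set minus gene differences. Their differences are therefore given as descriptions, without a p-value.

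Erlins belong to the SPFH family (stomatin, prohibitin, flotillin and HflK/C proteins), whose members assemble into large rings on membranes. The erlin complex binds IP3 receptors, the calcium channels of the endoplasmic reticulum, once these have been activated. It brings in the ubiquitin ligase RNF170, and the receptors are then destroyed by ER-associated degradation, the route by which membrane proteins are ubiquitinated, pulled out of the membrane and passed to the proteasome. Erlins also bind cholesterol and restrain the SREBP transcription factors, which switch on sterol synthesis. Mutations in either erlin gene cause forms of hereditary spastic paraplegia. Cugbp1 is the older name of Celf1, and its protein, like MBNL1, binds RNA and acts on splicing and mRNA stability.

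The siRNA targets checked the labels. Celf1 was at 36.4% of its control level after Cugbp1 siRNA and Mbnl1 at 39.3% of its own after Mbnl1 siRNA (adjusted p = 9.01e-07 and 3.97e-07 in limma with Benjamini-Hochberg). The median intensity was 43.6 to 43.8 on control arrays and 42.3 to 42.9 on the siRNA arrays. Precision is limited by having 3 arrays a group. Of 7 myoblast markers, 6 were tested, Myod1, Myf5 and Des among them. Myog, a gene of differentiating muscle, has only 4 probe sets. Of these, 2 passed the filter on weak signals, and a gene needed at least 3 to be tested. Its absence from the test therefore does not show that Myog was not expressed. Limma called Myod1 (0.30 on the log2 scale, adjusted p = 0.0142) and the cadherin gene Cdh15 (0.32, adjusted p = 0.00602) higher after Cugbp1 siRNA, and Myf5 lower after Mbnl1 siRNA (-0.28, adjusted p = 0.0147), a call lost without Mbnl1 siRNA replicate 2 (-0.23) or 3 (-0.23). The summed intensity of the 6 was 8478 to 8668 on control arrays, 8976 to 9189 after Cugbp1 siRNA and 8298 to 9400 after Mbnl1 siRNA. Of 14 markers of blood, endothelial, epithelial and neural cells, 10 were tested. A tested gene is read only from probe sets that passed the filter, so none could be at 0. The part that passed ran from 5 of 53 probe sets for Ptprc to 8 of 9 for Tubb3. Intensities summed over the 10 therefore do not show how far these markers are expressed. The sums were 2900 to 2947 on control arrays, 2395 to 2578 after Cugbp1 siRNA and 2582 to 2677 after Mbnl1 siRNA. Of these 10, limma called 6 lower after Cugbp1 siRNA, where 12.7% of all genes were called lower. After Mbnl1 siRNA it called 5 lower and 1 higher (14.6% and 26.9% of all genes). Against Mbnl1 siRNA, 2 of the 10 were lower after Cugbp1 siRNA (5.07% of all genes). The part of either marker list in the results that follow was not tested.

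Erlin2 lay on opposite sides of the control after the 2 siRNAs: at 65.4% of it after Cugbp1 siRNA and at 141% after Mbnl1 siRNA. Its gene value is a Tukey median polish, a robust average, of its 14 probe sets whose mean signal was at or above the array's 75th percentile (an intensity of 128). The 3 control arrays read 9.01, 9.03 and 8.93 (log2 intensity; mean 8.99 ± 0.05, SD, n = 3). After Cugbp1 siRNA they read 8.37, 8.37 and 8.39 (8.38 ± 0.0088, n = 3). All 3 lay below every control array (15.9% of genes did so), and they differed from each other by less than any other group of Erlin2 values did. After Mbnl1 siRNA the arrays read 9.49, 9.57 and 9.39 (9.48 ± 0.09, n = 3), all above every control array (37.3% of genes did so). Nothing is read from these shares, since the choice of the genes used the same contrasts. The difference from control was -0.61 (SE 0.05) after Cugbp1 siRNA, where 0.19% of genes were lower by at least 1.5-fold, and 0.49 (SE 0.05) after Mbnl1 siRNA. These were whole cultures, so fewer cells with the transcript and less transcript per cell cannot be told apart. Both differences use the same 3 control arrays.

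Erlin1 took the same order of groups with smaller steps. Its gene value, from 17 of 20 probe sets, was 9.23, 9.07 and 9.07 on the control arrays (9.12 ± 0.09, n = 3). The Cugbp1 siRNA arrays read 8.98, 8.88 and 8.95 (8.94 ± 0.05, n = 3). The Mbnl1 siRNA arrays read 9.25, 9.31 and 9.39 (9.32 ± 0.07, n = 3). The groups did not overlap, but the margins were narrow: control replicate 1 was only just below the lowest Mbnl1 siRNA array, and the other controls stood a little above the highest Cugbp1 siRNA array. Erlin1 differed from control by -0.19 (SE 0.06, 87.8% of the control level) after Cugbp1 siRNA and by 0.19 (SE 0.06, 114%) after Mbnl1 siRNA. The change of Erlin2 minus that of Erlin1 was -0.43 on the log2 scale after Cugbp1 siRNA and 0.30 after Mbnl1 siRNA (SE 0.08 for each). Under the 17 alternatives tried at gene level, which cover filters, scalings, summaries, the replicate block and each array left out, the differences of both genes kept their sign in every contrast. The replicate block, and leaving out an array of the group outside a contrast, could not change its difference. Leaving out an array inside a contrast could not turn its sign, because the groups did not overlap and the gene values were kept. Only the other filters, scalings and summaries could have turned a sign.

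**Figure D1:**
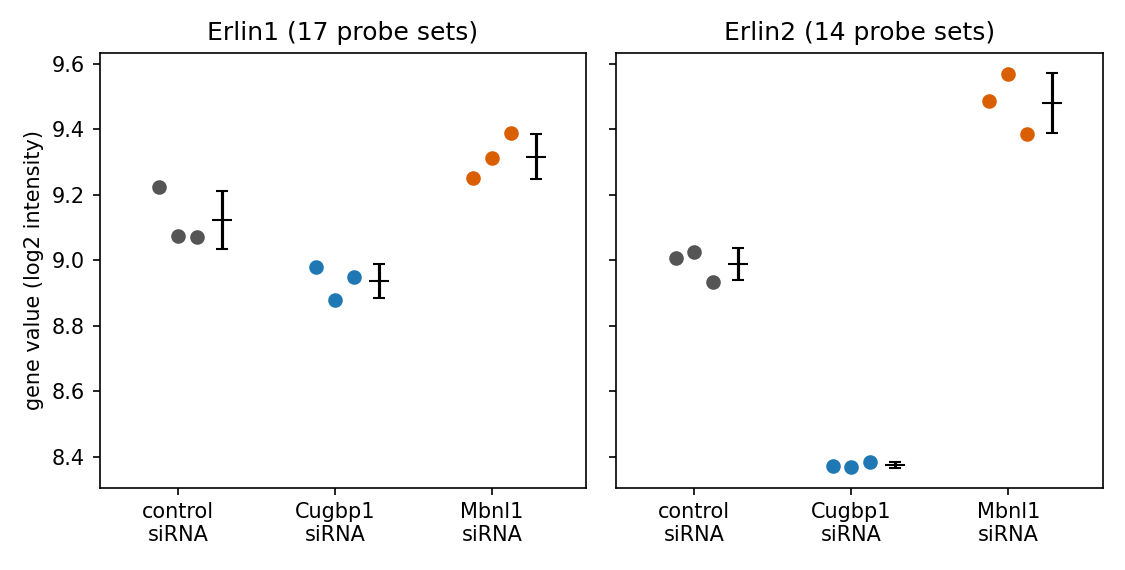
Gene values of Erlin1 and Erlin2 (vertical axis, log2 intensity) in the 3 siRNA groups; points are the arrays in replicate order, bars the mean ± SD (n = 3). Erlin2 drops from 8.99 to 8.38 after Cugbp1 siRNA and stands at 9.48 after Mbnl1 siRNA, and Erlin1 takes the same order between 8.94 and 9.32.

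The difference between the means of the siRNA groups does not use the control arrays; its standard error comes from the fit over all 9 arrays. Erlin2 was lower after Cugbp1 siRNA than after Mbnl1 siRNA by -1.10 (SE 0.05), so that its level after Mbnl1 siRNA was 2.15 times that after Cugbp1 siRNA, without overlap (14.4% of genes were lower without overlap). Of the 12646 genes tested, 8 (0.0633%) were lower by at least 2-fold in this contrast, and Erlin2 stood at place 5 of the order. Ahead of it were the protease gene Tmprss11f (-1.77), the target Celf1 itself (-1.39), the membrane protein gene Tmem123 (-1.36) and the ferroxidase gene Cp (-1.14, SE 0.12). Stmn4 (-1.09, SE 0.10), the carbonic anhydrase gene Car3 (-1.07) and Rgs2 (-1.02) followed; these 7 names were chosen after their values were seen. Cp and Stmn4, the neighbours of Erlin2 in this order, differed from it by less than their own standard errors. Cp, Car3 and Rgs2 were above control after both siRNAs, whereas Tmprss11f, Tmem123 and Erlin2 lay on opposite sides of it. Erlin1 differed by -0.38 (SE 0.06) and stood at place 161, where 0.372% of genes were lower by at least 1.5-fold, a limit that Erlin1 did not reach. The 5th and 95th percentiles of all genes were -0.22 and 0.19. In all, 0.704% of genes had every Cugbp1 siRNA array below and every Mbnl1 siRNA array above the controls, as both erlin genes did, and 1.01% showed the reverse order.

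**Figure D2:**
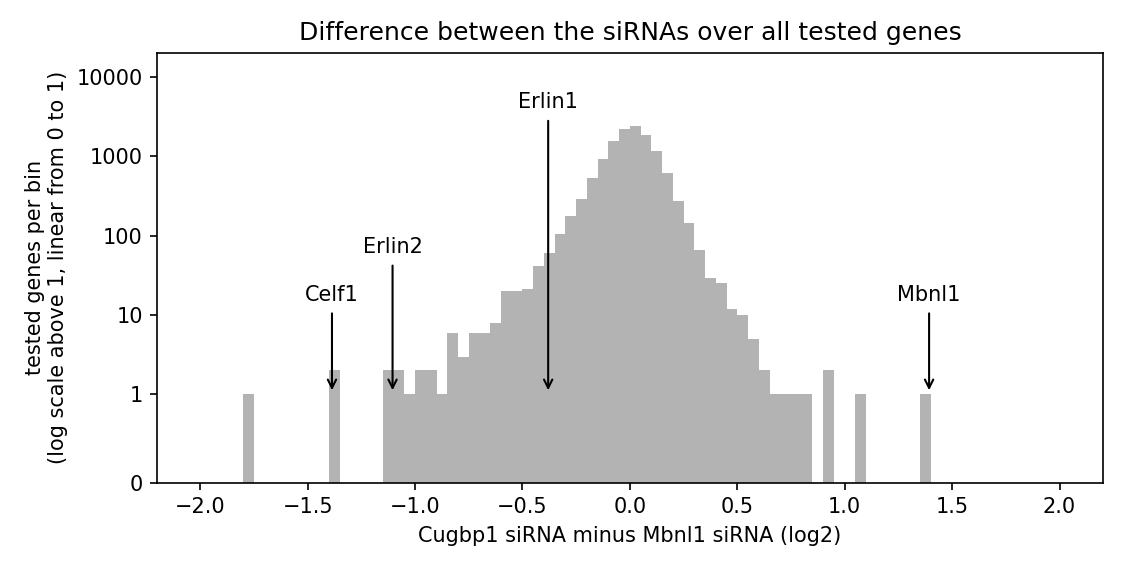
Number of tested genes (vertical axis, logarithmic above 1) by the difference Cugbp1 siRNA minus Mbnl1 siRNA in gene value (horizontal axis, log2, bins of equal width). Arrows mark Erlin2 at -1.10 and Erlin1 at -0.38, with the siRNA targets Celf1 at -1.39 and Mbnl1 at 1.39; Erlin2 lies in the sparse lower tail and Erlin1 at its edge.

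The fall of Erlin2 after Cugbp1 siRNA ran through its kept probe sets, and the rise after Mbnl1 siRNA mostly through 8 of them. These probe sets make up the gene value on which Erlin2 was selected. Their counts describe that value, and nothing is read from the shares beside them. The same holds for the Erlin1 probe sets below. After Cugbp1 siRNA all 14 kept Erlin2 probe sets had a lower mean than in control, by -0.12 to -0.95 with a median of -0.64. In 13 of the 14 every Cugbp1 siRNA array was below every control array, where 9.94% of the 162529 kept probe sets of tested genes were. Against Mbnl1 siRNA, 13 of the 14 were lower after Cugbp1 siRNA without overlap (11% of those 162529), and 9 of them by at least 2-fold. After Mbnl1 siRNA 13 of the 14 had a higher mean than in control, 10 without overlap (29.7% of those 162529). The median was 0.48, but the values fell apart: 8 probe sets were higher by 0.47 to 0.80 and the other 6 lay between -0.08 and 0.19, with none in between. The mean log2 signals ran from 7.69 to 9.82 among the 8 and from 7.57 to 9.88 among the 6. The split was drawn at a gap seen in the differences themselves, and its cause was not tested. After Cugbp1 siRNA the same 8 differed from control by -0.88 to -0.38 and the same 6 by -0.95 to -0.12.

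Single probe sets show the range. Probe set 5248411, picked here after the values were seen for its large difference, read 8.58, 8.22 and 8.37 in control, 7.14, 7.84 and 7.79 after Cugbp1 siRNA, and 8.98, 9.26 and 9.32 after Mbnl1 siRNA. It lies clearly on each side of control. Probe set 4353783, picked in the same way, was lowest of all against control after Cugbp1 siRNA, with 9.75, 9.96 and 10.05 in control and 9.05, 8.90 and 8.95 after that siRNA. After Mbnl1 siRNA it read 10.14, 10.06 and 10.14, only 0.19 above control. It thus shared the first response of the gene and little of the other. Probe set 4828655 shared neither: it read 8.97, 9.16 and 9.06 in control, 8.89, 8.99 and 8.95 after Cugbp1 siRNA, and 9.06, 9.31 and 8.86 after Mbnl1 siRNA, with groups that overlap throughout. The remaining Erlin2 probe set, 5168379, had a mean intensity of 7.10, far below the filter, and differed by 0.02 and -0.07 from control.

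Among the 17 kept Erlin1 probe sets 14 had a lower mean than in control after Cugbp1 siRNA; 5 were lower and 1 higher without overlap (9.94% and 24.3% of the kept probe sets of tested genes). The range was -0.42 to 0.34. After Mbnl1 siRNA 16 of 17 had a higher mean, 6 of them without overlap, not far from the share of all those probe sets (29.7%). Lower without overlap was 1 (13.1% of those), and the values ran from -0.18 to 0.86. The contrast between the siRNAs was the more even. In it 14 of the 17 were lower after Cugbp1 siRNA than after Mbnl1 siRNA without overlap (11% of those). The median was -0.42, and none was lower by 2-fold. Probe set 4395056, with a mean log2 signal of 12.59 the brightest of Erlin1, was the exception after Mbnl1 siRNA: it read 12.81, 12.63 and 12.62 in control and between 12.44 and 12.58 after that siRNA (named after its values were seen). The other 3 Erlin1 probe sets missed the filter, with mean log2 signals of 5.46, 6.34 and 6.95; the last of these stood just outside and probe set 5040517, at 7.09, just inside.

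**Figure D3:**
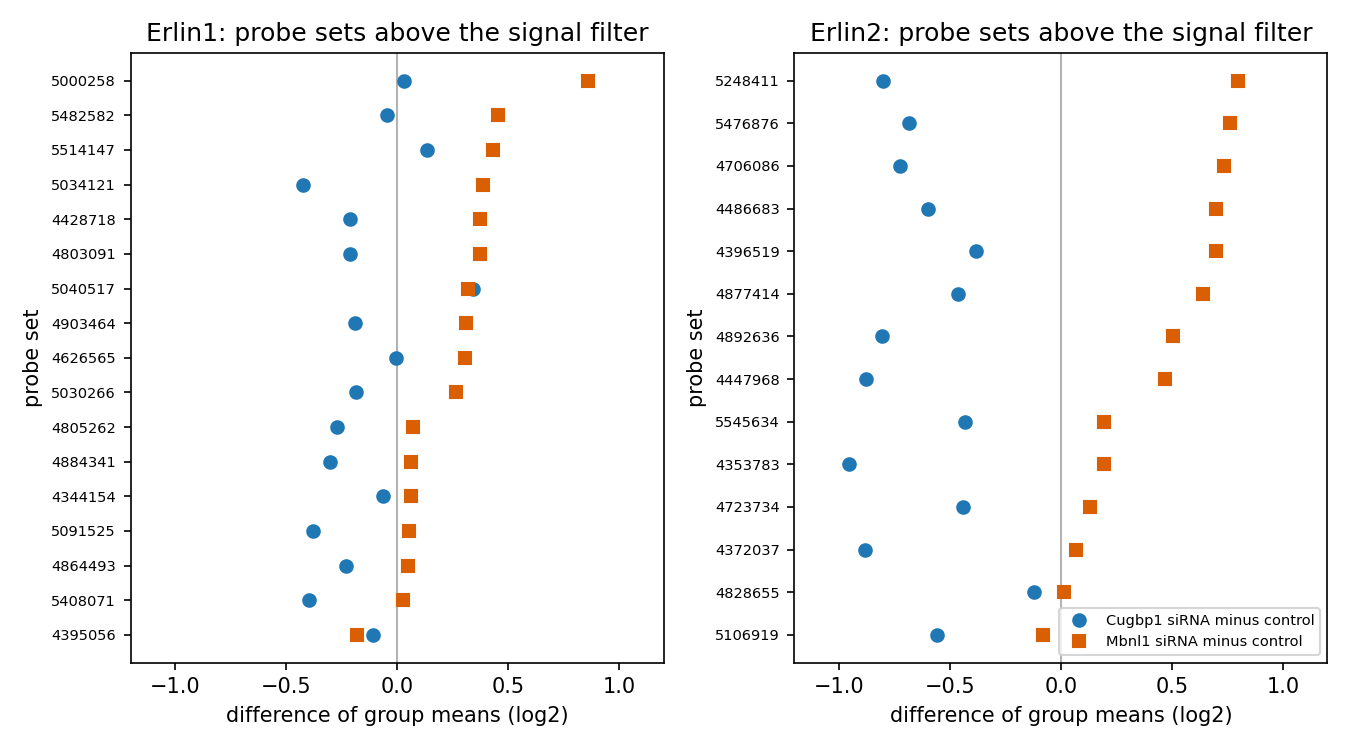
Difference of group means from control (horizontal axis, log2) for each kept probe set of Erlin1 and Erlin2 (vertical axis, ordered by the Mbnl1 siRNA difference); circles are Cugbp1 siRNA, squares Mbnl1 siRNA, each from 3 against 3 arrays. All 14 Erlin2 circles lie left of 0, and its squares separate into 8 at 0.47 to 0.80 and 6 at -0.08 to 0.19.

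Exon arrays also show whether a probe set departs from its gene, which can reflect a different use of exons or transcript ends; the probe sets were not placed on exons here. The measure is the probe set minus the gene value of the same array. No kept erlin probe set reached a difference of 1 between any groups, so the 2 largest of each gene are described. For Erlin2 probe set 4828655 the departure was 0.07 ± 0.09 in control (SD, n = 3), 0.57 ± 0.05 with Cugbp1 siRNA and -0.40 ± 0.13 with Mbnl1 siRNA. The signal of this probe set differed from control by only -0.12 and 0.01, and by -0.14 between the siRNAs. Its departures therefore mostly carry the change of the gene value with the sign turned. The departure differed between the siRNAs by 0.97, at place 38 by size among 162529 probe sets. It was 1.10 when set against the median of the other Erlin2 probe sets. That place follows largely from the gene change on which Erlin2 was selected. For Erlin2 probe set 5106919 the departure was 0.64 ± 0.17 in control, 0.70 ± 0.15 after Cugbp1 siRNA and 0.07 ± 0.19 after Mbnl1 siRNA. Only the last group stands apart on this measure. The signal of this probe set differed from control by -0.56 after Cugbp1 siRNA, without overlap, and by only -0.08 after Mbnl1 siRNA. Its departure after Mbnl1 siRNA therefore mostly carries the rise of the gene value (0.49). The weak probe set 5168379 had a difference of 1.19 between the siRNAs on this measure, but its own signal was near the bottom of the scale, so that figure carries the change of the gene value.

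The departures of Erlin1 were less steady. Probe set 5000258 departed by -0.90 ± 0.45 in control, -0.68 ± 0.14 after Cugbp1 siRNA and -0.23 ± 0.16 after Mbnl1 siRNA. Its control values were 8.66, 7.66 and 8.35, and without control replicate 2 its difference after Cugbp1 siRNA went from 0.22 to -0.040. Probe set 5040517 departed by -2.25 ± 0.31 in control, -1.72 ± 0.09 after Cugbp1 siRNA and -2.13 ± 0.24 after Mbnl1 siRNA. Between 3.6% (after Cugbp1 siRNA) and 6.75% (after Mbnl1 siRNA) of the kept probe sets of tested genes were called against their gene by limma with Benjamini-Hochberg, and 0.0277% between the siRNAs.

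**Figure D4:**
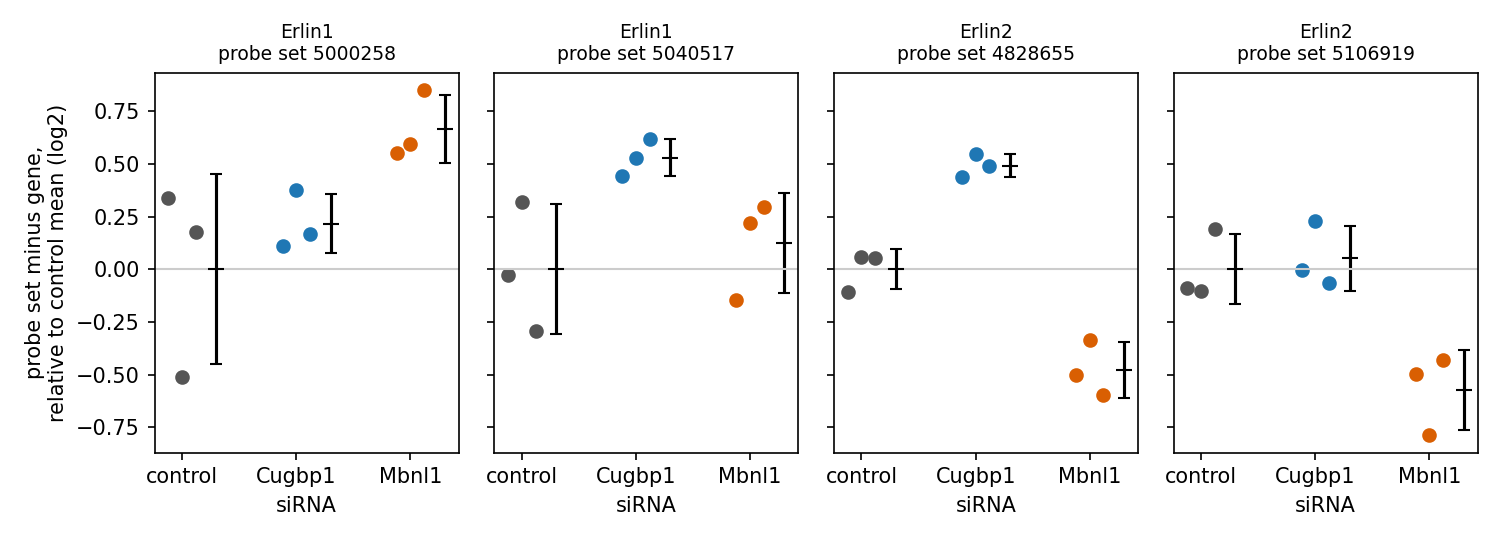
Probe set minus gene value on the same array, relative to the control mean (vertical axis, log2), for the 2 probe sets with the largest differences of each gene; points are arrays in replicate order, bars mean ± SD (n = 3). Erlin2 probe set 4828655 is 0.49 above its control mean after Cugbp1 siRNA and 0.48 below it after Mbnl1 siRNA. Its own signal differed from control by only -0.12 and 0.01. The controls of Erlin1 probe set 5000258 spread widely.

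Genes with the most similar course were sought over the 9 arrays, each gene taken relative to its own control mean, by the root mean square difference of the profiles. Nearest to Erlin2 were the matrix metalloproteinase gene Mmp10 (0.10), Tmem123 (0.13) and the phospholipid scramblase gene Plscr2 (0.17). They differed from control by -0.51, -0.79 and -0.38 after Cugbp1 siRNA and by 0.42, 0.58 and 0.40 after Mbnl1 siRNA. Erlin1 came at place 56 of this order (0.31). Nearest to Erlin1 were the cyclin gene Ccni, Scyl2 and the chondroitin sulfotransferase gene Chst11 (each 0.06), which is about the spread of Erlin1 between replicates (pooled SD 0.07); all profiles share the same 9 libraries. The departure profile of Erlin2 probe set 4828655 was most like those of a probe set of the myosin light chain gene Myl6 (0.14; 0.56 after Cugbp1 siRNA and -0.61 after Mbnl1 siRNA), one of the choline transporter gene Slc44a1 (0.16) and one of the RNA-transport gene Stau2 (0.16). Because the departures of 4828655 mostly carry the gene change of Erlin2, this likeness is not read as a shared use of exons. For Erlin1 probe set 5000258 the nearest belonged to Sbf2, Cd164 and Dnm3os (0.08 to 0.09).

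The nearest tested genes on the chromosome were also read. By gene order in a RefSeq table for GRCm38.p6, Plpbp and Adgra2 follow Erlin2. Plpbp differed by 0.06 after Cugbp1 siRNA and -0.01 after Mbnl1 siRNA (limma with Benjamini-Hochberg, adjusted p = 0.253 and 0.835), and Adgra2 by 0.12 (adjusted p = 0.0675) and 0.21 (adjusted p = 0.00684). Near Erlin1, Cpn1, a carboxypeptidase subunit gene, was lower after both siRNAs (-0.23 and -0.25, adjusted p = 0.0116 and 0.00619), and Chuk, the gene of the kinase IKK-alpha, was higher after both (0.21 and 0.31, adjusted p = 0.0341 and 0.00545). Without the filter on weak signals the calls of Adgra2 (0.09), of Cpn1 after both siRNAs (-0.22 and -0.20) and of Chuk after Cugbp1 siRNA (0.19) were lost. That of Chuk after Cugbp1 siRNA was kept by 9 of 18 alternatives and was also lost without any control array or Cugbp1 siRNA replicate 2 or 3 (0.16 to 0.22). Between the siRNAs the 4 differed by -0.10 to 0.07 (adjusted p from 0.310 to 0.848).

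The other genes of the pathway, from lists chosen with earlier results known, were tested in the same fit over all genes. Limma called 38.7% of all genes after Cugbp1 siRNA (26% higher, 12.7% lower), 41.5% after Mbnl1 siRNA (26.9% higher, 14.6% lower) and 9.34% between the siRNAs (4.27% higher and 5.07% lower after Cugbp1 siRNA). Rnf170, the ligase that works with the erlins, rose after both siRNAs, by 0.39 (SE 0.05, adjusted p = 4.32e-04) and 0.56 (SE 0.05, adjusted p = 3.34e-05). Its means were 7.88 ± 0.04 in control, 8.27 ± 0.06 with Cugbp1 siRNA and 8.43 ± 0.04 with Mbnl1 siRNA (SD, n = 3), from 17 probe sets. Its course thus differed from that of Erlin2, which was below control after Cugbp1 siRNA. Between the siRNAs Rnf170 differed by -0.17 (adjusted p = 0.0470), a call that 3 of 18 alternatives kept and that was lost without any array but Cugbp1 siRNA replicate 3 (-0.19 to -0.15). Of the IP3 receptors, the substrates of the complex, Itpr2 rose after both (0.28 and 0.27, adjusted p = 0.0111 and 0.0117) and Itpr1 after Mbnl1 siRNA (0.24, adjusted p = 0.00443; 0.11 after Cugbp1 siRNA, adjusted p = 0.100). Itpr3 did not pass (-0.12 and -0.07, adjusted p = 0.103 and 0.349). The rises of Rnf170 and Itpr2, and that of Itpr1 after Mbnl1 siRNA, passed under all 18 alternatives run for them.

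Of 45 genes of ER-associated degradation, 41 were tested; 9 rose and 1 fell after Cugbp1 siRNA, with a median of 0.06 against 0.05 over all genes. After Mbnl1 siRNA 12 rose and 3 fell, with a median of 0.04 against 0.04. The membrane-bound ubiquitin ligase genes Rnf5 (0.37 and 0.32, adjusted p = 5.92e-04 and 7.67e-04) and Rnf185 (0.33 and 0.38, adjusted p = 0.00261 and 0.00100) and the lectin gene Os9, whose protein selects misfolded glycoproteins (0.24 and 0.27, adjusted p = 0.00646 and 0.00342), rose after both. Derl3, of the derlin family of membrane proteins that serve extraction, fell after Cugbp1 siRNA (-0.35, adjusted p = 0.00595, on 4 of 12 probe sets). Erlec1, a lectin gene like Os9, had the largest rise of the list after Mbnl1 siRNA (0.53, adjusted p = 5.06e-04), and Ubl4a, of a chaperone complex for membrane proteins, fell (-0.30, adjusted p = 0.00483, on 3 probe sets). Between the siRNAs 6 of the 41 were called, beside 9.34% of all genes. The largest was Erlec1 at -0.30 (adjusted p = 0.0293), a call lost without Cugbp1 siRNA replicate 1 or 2 or any Mbnl1 siRNA array (-0.32 to -0.23). At the 50th percentile filter, and without a filter, none of the 42 genes then tested was called between the siRNAs. With arrays centred on the median of their kept probe sets, 5 were called higher and 2 lower after Cugbp1 siRNA, and 10 and 4 after Mbnl1 siRNA; the list's median after Mbnl1 siRNA then turned to -0.0067.

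In the SREBP list 7 of 9 genes were tested. Insig1, which holds SREBPs in the endoplasmic reticulum, rose after Cugbp1 siRNA (0.38, adjusted p = 5.20e-04) and after Mbnl1 siRNA (0.15, adjusted p = 0.0245; called under 11 of 18 alternatives). Mbtps2, a protease that releases SREBPs, rose after both (0.32 and 0.22, adjusted p = 0.00129 and 0.00657). The SREBP genes themselves, Srebf1 and Srebf2, fell after Mbnl1 siRNA (-0.26 and -0.19, adjusted p = 0.00233 and 0.00476) and differed by 0.05 and 0.06 after Cugbp1 siRNA (adjusted p = 0.436 and 0.247). The difference between the siRNAs was called for both (0.31 and 0.24, adjusted p = 0.00362 and 0.00438) under all 18 alternatives. Srebf1 and Srebf2 were lower and Erlin2 higher in Mbnl1 siRNA cells than in Cugbp1 siRNA cells. A link between them was not tested. In all, 2 of 7 rose after Cugbp1 siRNA, and 2 rose and 2 fell after Mbnl1 siRNA; the medians were 0.06 and 0.10, beside 0.05 and 0.04 over all genes.

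Of 17 genes of ER calcium handling 13 were tested, and 3 rose after Cugbp1 siRNA: the release channel gene Ryr1 (0.25, adjusted p = 0.00580), the store sensor gene Stim2 (0.21, adjusted p = 0.00414, or 0.0571 at 0.15 with a mean in place of the median polish) and the entry channel gene Orai2 (0.20, adjusted p = 0.0242). After Mbnl1 siRNA Stim2 (0.29, adjusted p = 5.49e-04) and Orai2 (0.22, adjusted p = 0.0151) rose again, with the pump gene Atp2a1 (0.14, adjusted p = 0.0442; named after its value was seen). The calcium pump gene Atp2a3 (-0.33, adjusted p = 0.00816) and Ryr3 (-0.20, adjusted p = 0.0150) fell. These values rest on the 7 of 28 and 9 of 117 probe sets that passed the filter. The call of Atp2a1 was kept by 5 of 18 alternatives. It was lost without control replicate 2 or 3, Cugbp1 siRNA replicate 2 or any Mbnl1 siRNA array (0.11 to 0.16), and without the filter on weak signals its difference was -0.0070. Between the siRNAs the adjusted p-values of the 13 ran from 0.209 to 0.907. The list's medians were -0.0081 and 0.02, beside 0.05 and 0.04 over all genes; the first turned to 0.03 with arrays centred on the median of all probe sets, and the other to -0.02 with arrays centred on their kept probe sets. Among the SPFH relatives, 8 of 9 were tested. The prohibitin gene Phb fell after Mbnl1 siRNA (-0.20, adjusted p = 0.00349) and not after Cugbp1 siRNA (-0.01, adjusted p = 0.807), with a difference between the siRNAs of 0.19 (adjusted p = 0.0176). That call was lost without Cugbp1 siRNA replicate 2 (0.19) or any Mbnl1 siRNA array (0.18 to 0.19). Stoml2, a relative in mitochondria, rose after Cugbp1 siRNA (0.12, adjusted p = 0.0384), and Flot2 (-0.15, adjusted p = 0.0458) and Stoml3 (-0.22, adjusted p = 0.0457, on 3 probe sets) fell after Mbnl1 siRNA; these 3 calls were kept by 6, 7 and 7 of 18 alternatives. In all 1 relative rose after Cugbp1 siRNA and 3 fell after Mbnl1 siRNA, with medians of -0.03 and -0.09, of which the first turned to 0.0060 with arrays centred on the median of all probe sets. Flot1 (0.23, adjusted p = 0.0442; named after its value was seen), Stoml2 (0.19, adjusted p = 0.0160) and Phb were higher after Cugbp1 siRNA than after Mbnl1 siRNA, the opposite sign to both erlins, and the other 5 lay between -0.15 and 0.15. The call of Flot1 was kept by 9 of 18 alternatives and lost without control replicate 1, any Cugbp1 siRNA array or Mbnl1 siRNA replicate 2 or 3 (0.20 to 0.26), and with the replicate block (adjusted p = 0.0554). That of Stoml2 was kept by 14 of 18 and lost without Cugbp1 siRNA replicate 2 (0.18), Mbnl1 siRNA replicate 2 (0.17) or 3 (0.20), or the filter (0.13).

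**Figure D5:**
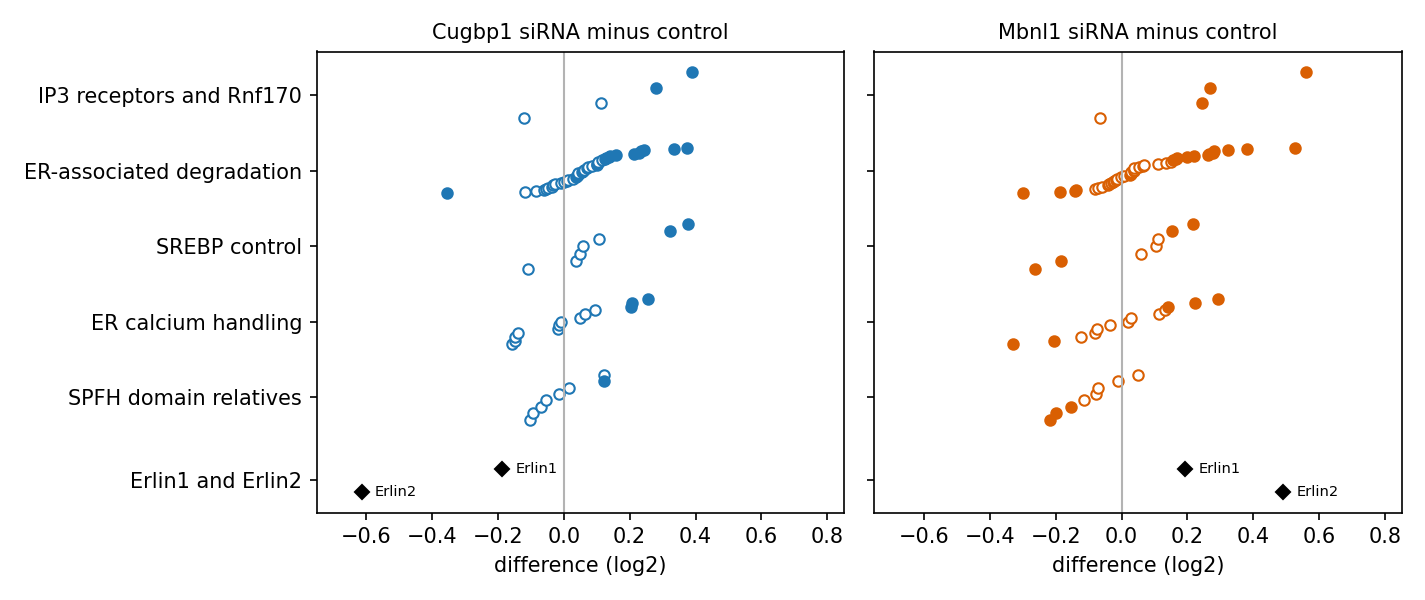
Difference from control (horizontal axis, log2) for each tested gene of the 5 lists (rows), with the Cugbp1 siRNA arrays on the left and the Mbnl1 siRNA arrays on the right. Filled circles have a limma adjusted p under 0.05 and open circles do not. Diamonds show Erlin1 and Erlin2, given without a p-value because both were selected on these differences. Erlin2 lies left of every listed gene after Cugbp1 siRNA (-0.61) and right of all but Erlec1 and Rnf170 after Mbnl1 siRNA (0.49).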

How the data were processed

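The authors deposited 1 intensity per probe set and array on a linear scale, for 1195555 probe sets; per the submitters' processing notes it was made with RMA in Affymetrix Expression Console with build mm9; their versions are not given here. Intensities were log2-transformed. Symbols came from the platform annotation (1 symbol for 316997 probe sets) and were updated through RefSeq synonyms. The filter kept probe sets with a mean at or above the 75th percentile of all (298889), and genes with at least 3 kept probe sets (12646) were summarised by median polish. Gene values, and probe set minus gene values (with a mean-variance trend), were fitted in limma 3.58.1 (R 4.3.3, with the data.table package, 1.17.8), 1 coefficient for each siRNA, all 9 arrays together. Benjamini-Hochberg adjustment ran over all genes or probe sets, with calls at an adjusted p under 0.05. Both steps were also run on simulated data with independent noise and far fewer changed genes than were called here. That run therefore does not show how reliable the calls on these arrays are. The members and lists were chosen with earlier results of these data known. Named erlin probe sets had a departure of at least 1 or were the 2 largest per gene; from each list, up to 4 called genes with the largest change per comparison with control were named, plus Rnf170 and the IP3 receptors, the 3 profiles nearest to each member and the tested genes within 2 places of it on the chromosome. No probe sequences, genome or protein sequences were used. Alternatives were other filters, scalings, summaries, variance models, the replicate block and each array left out; scaling on the kept probe sets, and several alternatives for list genes, were added after seeing the data.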

Additional observations from a re-analysis of the deposited data

How the results depend on the processing

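The erlin differences kept their sign in every contrast under 17 alternatives. The replicate block and arrays outside a contrast could not change a difference. Leaving out an array inside a contrast could not turn a sign, because the groups did not overlap. Leaving out 1 array gave -0.64 to -0.59, 0.45 to 0.54 and -1.15 to -1.06 for Erlin2 (Cugbp1 siRNA against control, Mbnl1 siRNA against control, and Cugbp1 siRNA against Mbnl1 siRNA) and -0.21 to -0.14, 0.16 to 0.24 and -0.41 to -0.34 for Erlin1. Erlin2 moved by more than its replicate SD without the filter on weak signals (0.42 after Mbnl1 siRNA and -1.03 between the siRNAs) and with a mean in place of the median polish (0.42 and -1.04). Without single arrays, 3 probe set departures turned sign: 5000258 after Cugbp1 siRNA to -0.040 (without control replicate 2; up to 0.38), 5040517 after Mbnl1 siRNA to -0.022 (without control replicate 3; up to 0.28) and 5106919 after Cugbp1 siRNA to -0.034 (without Cugbp1 siRNA replicate 2; up to 0.15).

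Called against their gene were 5858, 10972 and 45 probe sets in the same order of contrasts. At a 50th percentile filter the first and last were 3232 and 15, and without a filter limma called 636, 2648 and 0 (19058 at an unadjusted p under 0.05 in the last). Leaving out 1 array gave 1582 to 5937, 3160 to 12048 and 11 to 31. Genes called between the siRNAs numbered 1181, 639 without the filter and 628 to 1157 with 1 array left out. The split of called genes was 3293 higher and 1600 lower after Cugbp1 siRNA and 3397 and 1848 after Mbnl1 siRNA. It was 4398 and 1230, and 4232 and 1433, with arrays centred on all probe sets, and 2478 and 1971, and 2685 and 2448, with arrays centred on their kept probe sets; the latter was 2740 and 2375 with their quantile normalisation. The median of all genes lay between 0.0051 and 0.09 under these scalings. The cause was not tested.

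Of the list genes, Ryr3 turned to 0.0069 and Atp2a1 to -0.0070 after Mbnl1 siRNA without the filter and Stoml3 to 0.0081 at the 50th percentile filter. Single arrays decided some calls against control. After Cugbp1 siRNA, Orai2 was lost without control replicate 1 (0.21) or 3 (0.18) or Cugbp1 siRNA replicate 2 (0.16), and Stoml2 without any 1 of 7 arrays (0.11 to 0.13; kept without Cugbp1 siRNA replicate 1 or Mbnl1 siRNA replicate 2). After Mbnl1 siRNA, Ryr3 was lost without Mbnl1 siRNA replicate 2 (-0.15), Orai2 without control replicate 3 (0.19) or Mbnl1 siRNA replicate 3 (0.17), and Insig1 without control replicate 1 (0.13) or 2 (0.15) or Mbnl1 siRNA replicate 1 (0.13) or 2 (0.13). Flot2 was lost without any array but control replicate 1 and Cugbp1 siRNA replicate 1 (-0.17 to -0.10), and Stoml3 without any but control replicate 2, Cugbp1 siRNA replicate 1 and Mbnl1 siRNA replicate 3 (-0.23 to -0.14). Same-numbered arrays of different groups share only a number: their deviations from the group means correlated at -0.10 to 0.12, against -0.13 to 0.09 for other pairs. With the replicate block, 22 probe sets were called between the siRNAs, and the calls of Stoml2 (adjusted p = 0.0647), Stoml3 (0.0510) and Flot2 (0.0529) against control, and of Rnf170 (0.0759) and Erlec1 (0.0574) between the siRNAs, were lost.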
